A study of Mus musculus with 8 samples.

Results

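The genes described here act in DNA replication and in mitosis, and they were taken as a list of 42 gene symbols by their roles, drawn up with earlier results of these data known. A gene was represented by a probe set that carries its symbol alone in the array annotation, and by the one with the highest mean where it had several. Of the 42 genes, 40 had such a probe set, of 18193 genes measured in all. They were 19 genes of S phase, when DNA is copied, and 21 genes of mitosis, when the copies are parted. The expression of Chaf1a, of the chromatin assembly factor, and of Ccnb1, which encodes cyclin B1, was not analysed here. All 40 genes passed the filter on low signals.

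RNA came from mouse palatal shelves, the outgrowths of the upper jaw that fuse into the palate, at embryonic day 14.5 in a C57BL/6 X SV129 background. The groups were 4 samples of R26Pax3/Pax3 embryos (replicates 1, 3, 4 and 7) and 4 of wild type littermates (replicates 2, 6, 8 and 11), with no further treatment or allele in the labels. In the R26Pax3 allele the Rosa26 locus carries Pax3, whose product is a transcription factor active in neural crest and muscle precursors. The labels name no driver line, do not say which cells expressed the allele, and do not say whether a sample was 1 embryo or a pool, so p-values measure only the spread between these samples. R26Pax3/Pax3 samples are called mutant below.

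Palatal shelves grow by division of mesenchymal and epithelial cells before and during their elevation and fusion. Replication genes are switched on at the entry into S phase, largely by E2F transcription factors once the retinoblastoma proteins release them. Mitosis genes follow later, through promoter elements read by the MuvB complex together with B-MYB and FOXM1. The levels of both sets in a tissue are therefore widely used as a readout of proliferation. In bulk RNA such as this, fewer dividing cells and less of each transcript per dividing cell cannot be told apart.

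These promoter elements are shown for 5 genes, chosen because their promoters hold the words and so illustrate how the S phase and mitosis lists differ in sequence. RefSeq promoters of build GRCm38.p6, from 250 bases before to 50 after a transcription start, were found by symbol for 33 of the 42 genes, Chaf1a and Ccnb1 included. They were searched on both strands for an E2F-like word (TTTCCCGC, TTTGGCGC, TTTCGCGC or TTTGCCGC), for TTTGAA, the core of the cell cycle genes homology region (CHR), and for CCAAT, the word bound by NF-Y. E2F-like words can overlap one another on opposite strands, as they do in Mcm5. In the sequences below, capitals mark these 3 kinds of word on either strand, so the reverse complements TTCAAA and ATTGG also appear. Each sequence runs 5′ to 3′ along the gene's strand from 200 bases before the start and ends outside the annotated gene. Mcm5 is at chr8:75109309-75109467 (plus strand), Mcm6 at chr1:128359706-128359905, Top2a at chr11:99024200-99024389, Cdk1 at chr10:69352913-69353112 and Cdc20 at chr4:118437344-118437543 (the last 4 on the minus strand).
Mcm5: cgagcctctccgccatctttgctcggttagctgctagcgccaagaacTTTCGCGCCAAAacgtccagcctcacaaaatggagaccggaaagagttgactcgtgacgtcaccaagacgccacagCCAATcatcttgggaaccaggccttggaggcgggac
Mcm6: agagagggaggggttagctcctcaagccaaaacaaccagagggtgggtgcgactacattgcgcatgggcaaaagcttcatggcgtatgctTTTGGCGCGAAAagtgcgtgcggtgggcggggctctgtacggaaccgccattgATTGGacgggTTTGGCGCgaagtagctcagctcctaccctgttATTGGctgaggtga
Top2a: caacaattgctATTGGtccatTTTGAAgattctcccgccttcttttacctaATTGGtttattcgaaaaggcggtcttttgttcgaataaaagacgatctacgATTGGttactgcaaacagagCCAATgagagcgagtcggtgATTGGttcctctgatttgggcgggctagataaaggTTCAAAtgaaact
Cdk1: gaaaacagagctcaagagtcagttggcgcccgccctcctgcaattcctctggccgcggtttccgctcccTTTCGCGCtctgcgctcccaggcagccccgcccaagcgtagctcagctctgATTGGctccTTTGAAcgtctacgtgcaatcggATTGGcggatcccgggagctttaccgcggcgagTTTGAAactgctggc
Cdc20: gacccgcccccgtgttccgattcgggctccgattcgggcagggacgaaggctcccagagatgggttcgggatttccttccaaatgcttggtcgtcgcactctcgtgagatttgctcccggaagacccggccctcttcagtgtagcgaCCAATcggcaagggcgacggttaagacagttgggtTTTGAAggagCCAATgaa
Mcm5 and Mcm6 encode subunits of the replicative helicase and carry E2F-like words. Top2a (topoisomerase II alpha), Cdk1 (the kinase of mitotic entry) and Cdc20 (an activator of the anaphase-promoting complex) carry CHR and CCAAT words, and Cdk1 carries an E2F-like word as well.

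Over the lists, the E2F-like word stood in 7 of 18 promoters of 16 S phase genes (38.9%), in 1 of 17 promoters of 17 mitosis genes (5.88%) and in 2.26% of all 32851 promoters. The CHR word stood in 12 of the 17 mitosis promoters (70.6%), in 2 of the 18 S phase promoters, those of Mcm2 and Cdc45, and in 17.9% of all promoters. CCAAT was common to both, in 88.2% of mitosis and 72.2% of S phase promoters against 37.4% of all. CHR and CCAAT stood together in 70.6% of mitosis promoters, in 11.1% of S phase promoters and in 6.95% of all. A match describes the letters of the window and is not evidence of binding. These shares were not tested.

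The signals are MAS5 intensities, which scale each array to a common brightness, so a change shared by most genes would not be seen. Array medians lay between 43.5 and 44.8, correlations between arrays lay between 0.974 and 0.982, and no array repeated another. The labels were checked with Pax3, whose brightest probe set read 532, 559, 664 and 722 in mutant replicates 1, 3, 4 and 7 and 176, 142, 167 and 162 in wild type replicates 2, 6, 8 and 11 (log2 difference 1.83, SE 0.113, limma adjusted p = 1.59e-05). A further Pax3 probe set differed by 1.96 and the last by -0.29, with overlapping groups. Mesenchyme of the palate was represented by 9 of 9 measured markers, among them Osr2, Shox2 and Prrx1, above the median of every array. Bone markers were lower in mutant for 6 of 6 genes tested, of 8 listed. Of the 6, 0 had a limma adjusted p under 0.05 (smallest 0.565), against 0.0148% of all probe sets tested. The groups did not overlap for 1 of the 6, against 2.73% of all probe sets tested. The array means of the bone markers did not overlap between genotypes (9.185 to 9.48 in mutant and 9.61 to 10.02 in wild type, log2 scale). Skeletal muscle markers were lower in mutant for 11 of 11 genes, with overlapping array means. Their summed signal ranged from 1050 to 8006 in mutant and from 3381 to 9030 in wild type, and 10 of the 11 were lowest on mutant replicate 7. Neuron markers were higher in mutant for 10 of 10 genes (summed signal 1219 to 2146 against 630 to 2350) and red cell markers for 5 of 5 (5084 to 7776 against 4892 to 5871). The mean of the neuron markers differed by 0.047 among the 4 arrays deposited first and by 1.218 among the other 4. It was low on wild type replicates 2 and 11 (-1.012 and -1.019 from the mean of the arrays) and highest on wild type replicate 6 (0.712). Epithelium markers were higher for 7 of 10 (4956 to 7016 against 4792 to 5466), a difference of 15.5% in their mean, and for these 3 cell types the array means overlapped. The part of these cell types in the results below was not tested.

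No gene of either list passed the test of genotype. Signals were compared as log2(signal + 16) with limma across 27022 probe sets, and a gene was called at a Benjamini-Hochberg adjusted p under 0.05. Of 27022 probe sets 4 were called (0.0148%), 2 higher and 2 lower in mutant (0.00740% each), and without mutant replicate 3 there were 9. Of the 40 genes 0 were called, with limma adjusted p-values that all round to 1.00, and 1, E2f1, had an unadjusted p under 0.05, against 4.86% of all probe sets tested. Of the S phase genes 10 had a higher and 9 a lower mean in mutant, with a median log2 difference of 0.005. Of the mitosis genes 12 were higher and 9 lower, with a median of 0.005, and the median of all probe sets tested was 0.001. Differences ran from -0.17 (Ccne1) to 0.25 (E2f1) among S phase genes and from -0.17 (Foxm1) to 0.11 (Bub1b) among mitosis genes. They lay within 0.2 either way for 39 of the 40 genes, each read from its brightest probe set. The share was 94.1% of all 85 tested probe sets of these genes and 81.7% of all probe sets tested.

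**Figure D1:**
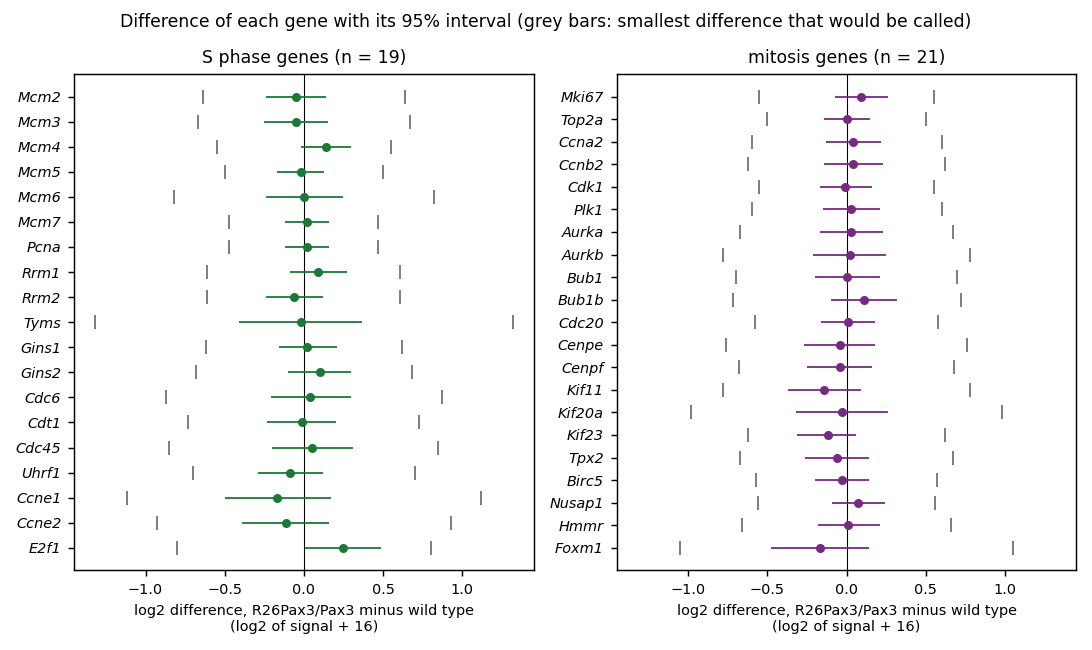
Log2 difference (R26Pax3/Pax3 minus wild type, log2 of signal + 16) of 19 S phase genes and 21 mitosis genes, each a point with its 95% limma interval. Grey bars mark the smallest difference that would have been called for that gene, and every point lies well inside them, with E2f1 at 0.25 the farthest from 0.

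The MCM proteins form the hexamer that unwinds DNA, and all 6 subunits were measured. Mcm7 read 2104, 2129, 2108 and 2096 in mutant replicates 1, 3, 4 and 7 and 2097, 2220, 2040 and 1960 in wild type replicates 2, 6, 8 and 11. The mutant values lay inside the wild type range, and the log2 difference was 0.02 (SE 0.0644, 95% interval -0.12 to 0.16). Mcm6 read 1308, 1698, 1185 and 1586 in the mutant and 1488, 1404, 1536 and 1282 in the wild type arrays. Both its highest and its lowest value were mutant, and the difference was 0.00 (SE 0.112, interval -0.24 to 0.25).

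Mcm4 had the second smallest p among the S phase genes. It read 1086, 1234, 1176 and 1028 in mutant replicates 1, 3, 4 and 7 and 1033, 1034, 1006 and 1017 in wild type replicates 2, 6, 8 and 11. Mutant replicates 1, 3 and 4 lay above all wild type arrays and replicate 7 did not (log2 difference 0.14, SE 0.0754, limma adjusted p = 1.00). A further probe set for Mcm4 gave 0.01. Mcm2 and Mcm3 differed by -0.05 each and Mcm5 by -0.02, so the 6 subunits did not lie on 1 side.

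The helicase is loaded by Cdc6 and Cdt1 and switched on by Cdc45 and the GINS complex. Their log2 differences were 0.04 for Cdc6, -0.01 for Cdt1, 0.05 for Cdc45, 0.02 for Gins1 and 0.10 for Gins2, and the groups overlapped for each. A dimmer probe set of Cdc45 differed by 0.29, also with overlapping groups. Cdc6 ranged from 134 to 196 among the mutant arrays alone, wider than the 146 to 167 among the wild type arrays. Pcna, the sliding clamp that holds DNA polymerase on its template, read 3970, 3763, 3813 and 3981 in mutant and 4018, 3931, 3532 and 3842 in wild type arrays. Its highest array was 1.14 times its lowest, and the difference was 0.02 (SE 0.0643, interval -0.12 to 0.16).

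Nucleotide supply gave the same picture. Rrm1 and Rrm2, the subunits of ribonucleotide reductase, had log2 differences of 0.09 and -0.06, and their groups overlapped. Tyms, thymidylate synthase, was the dimmest of the genes, with 30.5 to 48.4 in mutant and 31.7 to 58.1 in wild type arrays. Only 4 of its 8 values were above the median of their array, so its difference of -0.02 (SE 0.179, interval -0.41 to 0.37) carries little. Uhrf1, which guides maintenance methylation to newly copied DNA, differed by -0.09.

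Cyclin E and E2F1 stand at the entry into S phase and had the widest differences of the S phase list, in opposite directions. E2f1, a transcription factor that activates replication genes, read 132, 139, 132 and 124 in mutant replicates 1, 3, 4 and 7 and 124, 96.5, 113 and 100 in wild type replicates 2, 6, 8 and 11. Every mutant array lay above every wild type array, but by only 124.3 against 123.9 at the closest pair. The log2 difference was 0.25 (SE 0.109, limma adjusted p = 1.00), and it was 0.33 among the 4 arrays deposited first and 0.18 among the other 4.

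E2f1 was the 1 gene of 40 whose groups did not overlap, and 2.73% of all probe sets tested did not overlap either. Its second probe set had a log2 difference of 0.03, so the probe sets of E2f1 did not share the difference. Ccne1, the gene of cyclin E1, read 437, 294, 333 and 340 in mutant and 459, 315, 336 and 482 in wild type arrays. Wild type replicates 2 and 11 and mutant replicate 1 were high and the others low, so the split did not follow genotype (log2 difference -0.17, SE 0.152, limma adjusted p = 1.00). It was -0.07 without wild type replicate 11, -0.09 without wild type replicate 2 or mutant replicate 3, and -0.27 without wild type replicate 6 or mutant replicate 1. The other probe set of Ccne1 differed by -0.06, with overlapping groups. Ccne2, for cyclin E2, differed by -0.11.

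**Figure D2:**
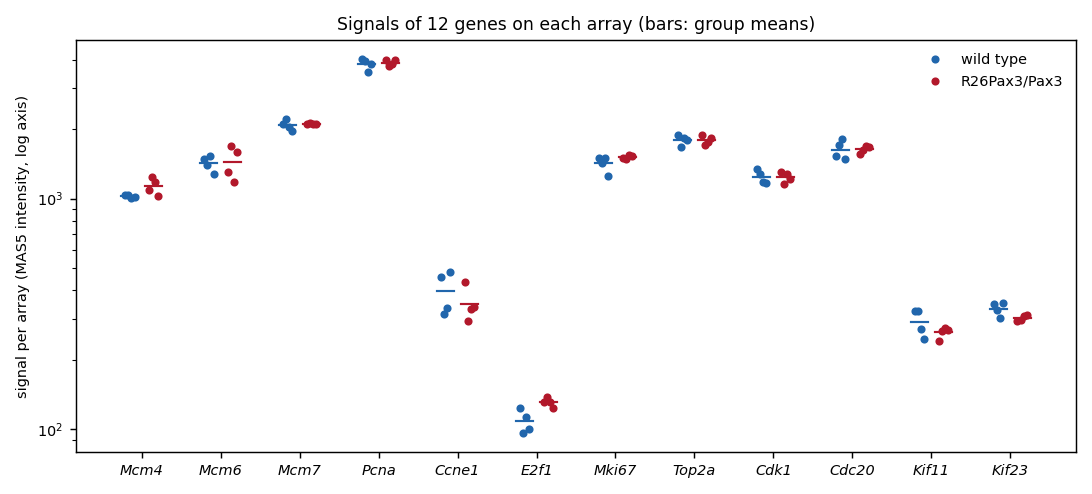
Signal on each array (MAS5 intensity, log axis) of 12 S phase and mitosis genes, with wild type in blue, R26Pax3/Pax3 in red, 4 arrays each, and bars for group means. The groups overlap for each gene except E2f1, whose lowest mutant value of 124.3 lies just above the highest wild type value of 123.9.

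Among the mitosis genes, the markers most used to score dividing cells were not called. Mki67, which encodes the Ki-67 antigen, read 1504, 1477, 1547 and 1528 in mutant replicates 1, 3, 4 and 7 and 1501, 1423, 1506 and 1256 in wild type replicates 2, 6, 8 and 11. Wild type replicate 11 was the low one, and the other 7 arrays lay between 1423 and 1547. The log2 difference was 0.09 (SE 0.0751, interval -0.07 to 0.26, limma adjusted p = 1.00), and it was 0.04 without wild type replicate 11. Top2a read 1881, 1701, 1767 and 1839 in mutant and 1882, 1672, 1823 and 1790 in wild type arrays. The groups spanned nearly the same range, with a difference of 0.00 (SE 0.0684, interval -0.14 to 0.15).

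Cdk1, with its partner cyclins, drives the cell into mitosis. It read 1302, 1156, 1274 and 1211 in mutant and 1344, 1277, 1182 and 1170 in wild type arrays. High and low values were mixed between the groups (log2 difference -0.01, SE 0.0753, interval -0.17 to 0.16). The cyclins Ccna2 and Ccnb2 differed by 0.04 each. Foxm1, the forkhead factor that activates mitosis genes, differed by -0.17 (interval -0.48 to 0.14) at a low signal of 78.2 to 134.8. Its further tested probe sets differed by -0.04 and -0.39, so all were lower in mutant, with overlapping groups.

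Kinases and checkpoint genes on the list that govern the spindle were measured as well. The polo kinase Plk1 and the aurora kinase Aurka differed by 0.03 each and Aurkb, the kinase of the chromosomal passenger complex, by 0.02. Its partner Birc5, or survivin, differed by -0.03. The checkpoint genes Bub1 and Bub1b differed by 0.00 and 0.11. Cdc20 read 1562, 1618, 1693 and 1674 in mutant and 1524, 1713, 1804 and 1480 in wild type arrays, so that the wild type arrays held both the highest and the lowest values (difference 0.01, SE 0.0789, interval -0.16 to 0.18).

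Kif23 and Kif11 had the smallest p-values of the mitosis genes and did not pass. Kif23, a motor of the midbody, read 294, 299, 309 and 313 in mutant replicates 1, 3, 4 and 7 and 349, 328, 303 and 351 in wild type replicates 2, 6, 8 and 11. Wild type replicate 8 fell among the mutant values, and the difference was -0.12 (SE 0.0842, limma adjusted p = 1.00). Kif11, the motor that parts the spindle poles, read 241, 267, 277 and 269 in mutant and 326, 326, 273 and 247 in wild type arrays. Wild type replicates 2 and 6 were high and replicates 8 and 11 lay among the mutant arrays (difference -0.14, SE 0.107, limma adjusted p = 1.00). The further probe sets of Kif11 differed by -0.03 and 0.01, and the other tested one of Kif23 by -0.20. Without wild type replicate 2 or 6 the difference of Kif11 was -0.09, and without wild type replicate 11 it was -0.21.

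The remaining genes of the spindle and kinetochore lay nearer to 0. Kif20a, a motor of cytokinesis, differed by -0.03, with the widest range of the spindle genes, from 277 in mutant replicate 3 to 446 in mutant replicate 1. The kinetochore genes Cenpe and Cenpf differed by -0.04 each. The spindle assembly genes Tpx2, Nusap1 and Hmmr differed by -0.06, 0.07 and 0.01.

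Several probe sets per gene gave a second look at the same RNA. The genes had 97 probe sets with their symbol alone, of which 85 passed the filter, and 45 of these were not the brightest of their gene. Of the 45, 40 lay within 0.2 either way on the log2 scale and 2 had an unadjusted p under 0.05. The first was the third probe set of Cdc20, which read 37.5, 51.6, 27.9 and 45.9 in mutant and 54.1, 83.6, 54.6 and 71.2 in wild type arrays (log2 difference -0.53, SE 0.174, limma adjusted p = 0.905). All wild type arrays lay above all mutant arrays there, while the brightest and second probe sets of Cdc20 differed by 0.01 and -0.05.

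The other was the second brightest probe set of Cenpf, which read 111, 75.4, 78.2 and 89.1 in mutant and 52.4, 85.6, 59.5 and 64.5 in wild type arrays (log2 difference 0.36, SE 0.156, limma adjusted p = 1.00). Wild type replicate 6 lay among the mutant values. The brightest and the dimmest probe sets of Cenpf differed by -0.04 and -0.15, so neither gene had a shift that its probe sets shared. Of 30 genes with more than 1 tested probe set, 15 had probe sets of both signs.

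**Figure D3:**
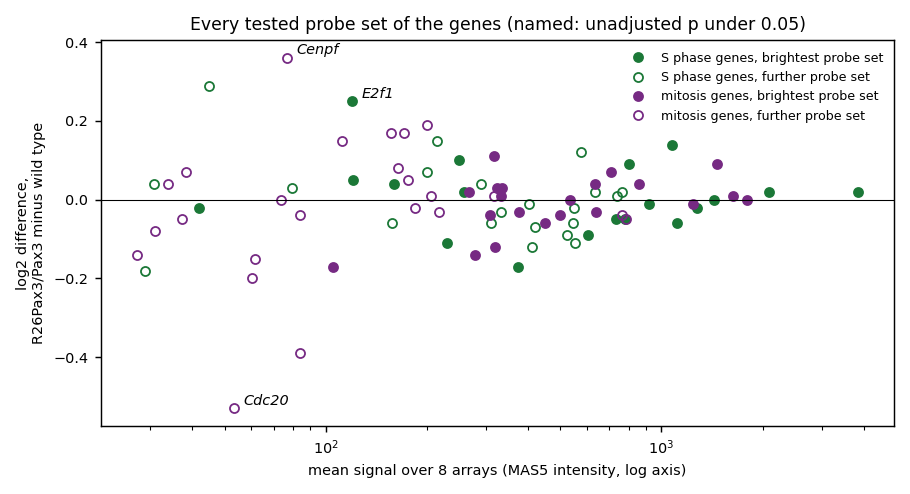
Log2 difference (R26Pax3/Pax3 minus wild type) against mean signal over 8 arrays (MAS5 intensity, log axis) for the 85 tested probe sets of the genes, filled for the brightest of a gene and open for the 45 others. Points are within 0.25 of 0 at signals above 100, and the named ones, E2f1, Cenpf and Cdc20, had an unadjusted p under 0.05.

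The arrays set a limit on which measured differences could have been called. For a gene to be called as 1 further probe set, its p had to reach 9.25e-06. At the measured standard errors this asked for a median log2 difference of 0.68 among S phase genes, a 1.60-fold change on the scale with 16 added, and of 0.66, or 1.58-fold, among mitosis genes. The reach was best for Pcna and Mcm7, at 0.47 (1.39-fold), and for Top2a, at 0.50 (1.42-fold). It was poorest for Tyms, at 1.32 (2.49-fold), Ccne1, at 1.12 (2.18-fold), and Foxm1, at 1.05 (2.07-fold). The median over all probe sets tested was 1.00, or 2.00-fold. These are measured differences, and a true difference of the same size would often measure smaller and be missed.

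The single intervals were narrower than that threshold. The 95% limma interval, not adjusted for the number of genes, reached a median of 0.20 to either side in both lists. For 40 of 40 genes it lay within a 1.5-fold change either way (0.585 on the log2 scale). Of all probe sets tested, 83.3% had an interval within 1.5-fold. The 40 are the brightest probe sets of their genes, and of all 85 tested probe sets of these genes 92.9% had such an interval. The bounds farthest from 0 were -0.50 for Ccne1 and 0.49 for E2f1.

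The average over the genes of each list was compared as well, with an interval of another kind than the limma one. The mean of the 19 S phase genes was 9.063 ± 0.0305 in mutant and 9.054 ± 0.0319 in wild type arrays (log2 scale, SD, n = 4 each), a difference of 0.009. The 16 differences between a mutant and a wild type array give an exact 97.1% interval of the shift, from -0.055 to 0.081, or -3.74% to 5.75%. A list difference of 0.064 upward (4.51%) or -0.072 downward (-4.87%), with the same spread, would have left no overlap between the groups.

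The mean of the 21 mitosis genes was 9.020 ± 0.0496 in mutant and 9.028 ± 0.0449 in wild type arrays, a difference of -0.008. The exact 97.1% interval was -0.116 to 0.107, or -7.75% to 7.73%. Here a rise of 0.109 (7.83%) or a fall to -0.115 (-7.66%) would have ended the overlap. These intervals cover the spread between arrays for this set of genes, and they refer to levels relative to the rest of the array. The level of S phase relative to mitosis genes was 0.043 ± 0.0783 in mutant and 0.026 ± 0.0256 in wild type arrays (log2 scale, SD, n = 4 each). The difference was 0.016, with an interval of -0.089 to 0.152 made in the same way. Such an interval is exact only for groups of equal spread, and these SDs were unlike.

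Single arrays moved more than the genotypes did. Mutant replicate 3 had the highest mean of the S phase genes, 9.108, and the lowest of the mitosis genes, 8.954. On that array 6 of the 19 S phase genes had their highest value, 0 of the 21 mitosis genes had theirs and 7 had their lowest. Its S phase mean exceeded its mitosis mean by 0.154, while this gap lay between -0.029 and 0.061 on the other 7 arrays. Wild type replicate 11 was lowest for the S phase list, 9.027, and low for mitosis, 8.967, with 5 and 6 genes at their lowest. Without mutant replicate 3 the median differences were -0.001 for S phase and 0.024 for mitosis genes, and without wild type replicate 11 they were -0.037 and -0.022. On mutant replicate 3 the bone and leukocyte markers were the lowest of the 8 arrays (-0.395 and -0.316 from the mean of the arrays, log2 scale), and on wild type replicate 11 the bone and skeletal muscle markers were the highest (0.437 and 0.837) and the epithelium and neuron markers the lowest (-0.208 and -1.019). The part of these cell types in this was not tested.

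**Figure D4:**
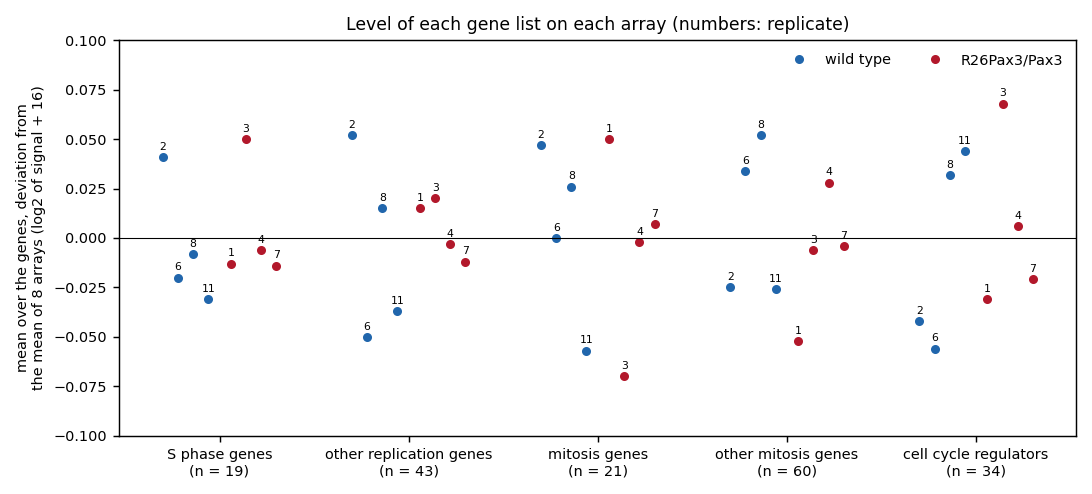
Mean level of each gene list on each array as its deviation from the mean of the 8 arrays (log2 of signal + 16), with wild type in blue and R26Pax3/Pax3 in red and the replicate number beside each point. All deviations lie between -0.070 and 0.068, genotypes overlap in each list, and mutant replicate 3 is highest for S phase and lowest for mitosis genes.

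The rest of the machinery was read from 3 further lists, with 0 genes called among 137 tested (0.0148% of all probe sets were called). At an unadjusted p under 0.05 there were 4 of the 137, against 4.86% of all probe sets. Of 43 other replication genes, such as those of the origin recognition complex, DNA polymerases and the clamp loader, 26 were higher and 17 lower, with a median log2 difference of 0.010. The smallest p was that of Rfc2, a subunit of the clamp loader, at 300 ± 23.6 in mutant and 382 ± 85.0 in wild type (SD, n = 4 each, log2 difference -0.31, limma adjusted p = 1.00). Next were Pold2, a subunit of DNA polymerase delta (-0.23), and the flap endonuclease Fen1 (0.24). Their groups overlapped. The array mean of the list was 8.492 ± 0.0149 in mutant and 8.483 ± 0.0473 in wild type.

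Of 60 other mitosis genes 25 were higher and 35 lower, with a median of -0.027. Ube2s, a ubiquitin-conjugating enzyme that works with the anaphase-promoting complex, read 1277, 1215, 1360 and 1201 in mutant and 859, 1126, 950 and 1218 in wild type arrays. Wild type replicate 11 lay among the mutant values (log2 difference 0.29, SE 0.105, limma adjusted p = 0.965). Nek2, a centrosome kinase, read 304, 211, 226 and 145 in mutant and 326, 334, 309 and 265 in wild type arrays. Mutant replicate 1 lay above wild type replicate 11 (difference -0.49, SE 0.173, limma adjusted p = 0.965). Ncapd2, a condensin subunit, differed by 0.29. On mutant replicate 3 the mean of these 60 genes was -0.006 from the mean of the arrays, so they did not share the low value of the 21 mitosis genes there.

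Of 34 regulators of the cell cycle, among them E2F and retinoblastoma family members, MuvB subunits, cyclin-dependent kinases and checkpoint kinases, 15 were higher and 19 lower, with a median of -0.019. The smallest p-values were those of Max, the partner of MYC (0.43, SE 0.212), Lin37, a MuvB subunit (-0.15), and the G1 kinase Cdk6 (0.20), with limma adjusted p-values of 1.00. Max read between 233 and 275 in the mutant arrays, and from 127 to 284 in the wild type arrays, where replicates 2 and 8 were low. Fam64a, an older symbol of Pimreg, was not matched to a probe set and not analysed here, and Kif14 and Kif15 were left out by the filter.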

How the data were processed

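Total RNA (6 µg, Trizol) from 8 samples was labelled and hybridised to Affymetrix arrays, per the labels. The deposited values are linear signal intensities per probe set made by the authors with MAS5, per the submitters' processing notes; its version, target and any genome build are not given in the sources used here. The arrays held 45037 probe sets besides 64 controls, of which 34945 had a single symbol in the array annotation, 932 several and 9160 none.

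No further normalization was applied, and log2(signal + 16) was used, a scale that makes changes at low signal look smaller. A probe set was kept if its mean over the arrays exceeded the 40th percentile, as 27022 did. The test of genotype was that of limma 3.58.1 under R 4.3.3 (lmFit, eBayes with an intensity trend, two-sided, no covariates), with Benjamini-Hochberg adjustment over all 27022, and the procedure was tested on simulated data. List means, their exact intervals and promoter words carry no test. The genes, by role, and the lists were chosen with earlier results of these data known. Values are given array by array for the 3 brightest genes and the 3 with the smallest p in each list and for Pcna, Mki67, Top2a and Cdk1, and up to 3 genes with the smallest p are named in each further list. Alternatives were 2 other pseudocounts, other filters, quantile normalization, no trend, the order of deposit as a block, the mean over a gene's probe sets and each replicate left out. The number of arrays limits the precision.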

Additional observations from a re-analysis of the deposited data

Results flagged for a closer look

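One value stood apart from the others of its group. The mean of the S phase genes was 9.11 (log2 of signal + 16) in mutant replicate 3, while the other 3 mutant arrays lay between 9.04 and 9.05, so that the gap took up 0.874 of the range of the group. Of 90 groups of 4 arrays looked at this way, for the 40 genes and 5 lists, this was the 1 past Dixon's limit for 4 values, and chance alone passes it in about 1 of 20.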

How the results depend on the processing

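The 0 called genes among S phase, mitosis and further cell cycle genes stayed at 0 under every alternative in which they were computed, and 0 of the 192 recomputed values of the 12 genes given array by array were called (lowest limma adjusted p = 0.827, over a gene's mean of probe sets). With that mean, E2f1 had a log2 difference of 0.14 and Cdc20 of -0.19. Leaving out each replicate in turn, the count over all probe sets ranged from 4 to 9 (9 without mutant replicate 3), the median log2 difference of the S phase genes from -0.037 (without wild type replicate 11) to 0.026 and that of the mitosis genes from -0.022 to 0.024. The medians are too close to 0 for their sign to be read. The median difference needed for a call was 0.67 over the 40 genes, and between 0.59 and 0.81 under the alternatives. The causes of these changes were not tested. No paired analysis was made, because the titles of the samples do not say which of them shared a litter. Low signal limits Tyms most.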

Other observations

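The filter left out 12 further probe sets of the genes, all of low signal. The largest difference among them was on the dimmest probe set of Bub1b, which read 16.5, 30.5, 31.7 and 33.7 in mutant replicates 1, 3, 4 and 7 and 11.8, 24.4, 16.1 and 3.1 in wild type replicates 2, 6, 8 and 11. The log2 difference was 0.59, and the 2 brighter probe sets of Bub1b differed by 0.11 and 0.01. All 8 values of the dimmest probe set lay below the median of their array, so its difference carries little. Whether these values exceeded background was not tested.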
